A study of Rattus norvegicus with 44 samples.

Results

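Aminoacyl-tRNA synthetases were followed in 5 clonal rat neural precursor lines before and after withdrawal of FGF2. The members were the genes that were the only gene of a probe set in the platform annotation and whose symbol was that of a synthetase, which gave 29 of the 12749 genes measured. Of these, 18 encode cytosolic enzymes and 11 mitochondrial ones, and each gene was read from its probe set with the highest mean. Genes of both compartments were counted with the cytosolic enzymes, since Gars1 and Kars1 are known to make both forms. Members were not filtered on level, so all 29 entered every test. Synthetases of the rule that are missing from this set, Qars1 and Tars3 among them, were not analysed here.

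Each enzyme joins an amino acid to its tRNA, the step that sets the genetic code, and cytosolic and mitochondrial protein synthesis mostly use enzymes from separate nuclear genes. Several cytosolic enzymes are held in one large multisynthetase complex with the scaffold proteins Aimp1, Aimp2 and Eef1e1. Many cytosolic synthetase genes are known, from work in mouse and human cells, as targets of Atf4, the transcription factor that amino acid shortage and other stresses raise, which binds C/EBP-ATF response elements.

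The clones were Ctx8 and L2.3, described in the labels as multipotential precursors, Ge2, a nonneuronal precursor, Ge6, a GABAergic neuronal precursor, and L2.2, an interneuronal precursor. Each line is 1 clone, so a difference between lines compares those clones and not classes of precursor. Day 0 cultures were kept with FGF2 on a coat of poly-lysine and laminin, while cultures at days 3 and 7 had been moved to medium with B27 and 0.5% fetal bovine serum and without FGF2, so that the loss of FGF2 and the other changes of medium came together. For each combination 3 sister cultures were arrayed on Affymetrix chips, but 2 for L2.2 in FGF2, 44 in all, and the p-values measured the spread between sister cultures.

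The RefSeq promoter table of build GRCr8 holds 250 bases before and 50 bases after a start of each gene. That start is not always the first base of the gene span. The promoters of 27 of the 29 members were found in this table. They were searched on both strands for the core of the C/EBP-ATF response element, TGATGNAA, which reads TTNCATCA on the other strand. A match was present in 7 of 16 cytosolic synthetase promoters, or 43.8%, in 0 of 11 mitochondrial ones, in 3.98% of all 33469 promoters of the table, and in 2.22% of the 10519 promoters of genes measured here. The 7 genes were Aars1, Cars1, Iars1, Mars1, Nars1, Tars1 and Yars1. A match describes the letters of the window and not a binding site, and the lack of one says only that these letters are not there. The windows around the matches of 6 of these genes are printed on the gene's strand, with the match in capitals, because the values of these genes are set against those of the other members below. The Yars1 window is short because its match lies near the end of the table's sequence.
Cars1, GRCr8 chr1:208225334-208225363, minus strand: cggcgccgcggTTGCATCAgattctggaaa
Iars1, GRCr8 chr17:15193658-15193687, minus strand: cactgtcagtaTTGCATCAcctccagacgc
Mars1, GRCr8 chr7:65023752-65023781, minus strand: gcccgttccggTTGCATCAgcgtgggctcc
Nars1, GRCr8 chr18:60275778-60275807, minus strand: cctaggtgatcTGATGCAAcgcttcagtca
Tars1, GRCr8 chr2:62114811-62114840, minus strand: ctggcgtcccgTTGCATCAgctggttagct
Yars1, GRCr8 chr5:146820190-146820212, plus strand: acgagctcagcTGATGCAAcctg

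Positions were counted from 1 at the start in the promoter table, with negative numbers for the bases before it. The match lay at -27 to -20 in Tars1, -24 to -17 in Iars1, -17 to -10 in Mars1 and -14 to -7 in Nars1. It lay after that start in Cars1, at 18 to 25, and in Yars1, at 39 to 46. The RefSeq gene spans of Cars1, Iars1 and Mars1 begin further upstream than the table's start. The Iars1 and Mars1 matches therefore lie inside those spans and not before them. The whole windows of Aars1, which holds a match, and of Eprs1, which holds none, lie inside their gene spans. Most of the Vars1 window, without a match, does so too. For these genes the search did not cover the bases before the gene span, or covered few of them. The same motif stood in the promoters of Chac1 and Trib3, known Atf4 target genes outside the synthetases that are described below. No other gene of the amino acid response was looked up, so how common the motif is among those genes is not known here.
Chac1, GRCr8 chr3:126795953-126795982, plus strand: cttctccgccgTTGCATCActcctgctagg
Trib3, GRCr8 chr3:161275536-161275565, minus strand: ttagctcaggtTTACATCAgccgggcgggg

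The 250 bases before the start in the promoter table are shown for Tars1 and Kars1. The Tars1 stretch holds a match near its end, and the Kars1 stretch holds none. Kars1 had the smallest cytosolic changes in Ge2 and L2.2 at day 3 and in Ge6 at day 7. The last of the Kars1 bases lie inside its RefSeq gene span, which begins further upstream than that start.
Tars1, GRCr8 chr2:62114803-62115052, minus strand: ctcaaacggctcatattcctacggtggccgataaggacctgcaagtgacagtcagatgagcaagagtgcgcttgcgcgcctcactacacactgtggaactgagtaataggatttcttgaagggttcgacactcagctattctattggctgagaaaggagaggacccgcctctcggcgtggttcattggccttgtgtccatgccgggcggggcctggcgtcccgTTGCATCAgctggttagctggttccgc
Kars1, GRCr8 chr19:56886084-56886333, minus strand: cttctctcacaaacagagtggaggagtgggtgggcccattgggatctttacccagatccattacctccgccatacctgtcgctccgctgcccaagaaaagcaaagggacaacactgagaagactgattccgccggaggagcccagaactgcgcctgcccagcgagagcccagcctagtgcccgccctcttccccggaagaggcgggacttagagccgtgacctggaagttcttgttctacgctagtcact

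Hars1 and Hars2, which encode the cytosolic and the mitochondrial histidyl-tRNA synthetase, lie head to head, with 97 bases between their gene spans in the RefSeq annotation. The Hars2 start of the promoter table lies further inside that gene. The 97 bases hold no match and are shown because the mRNA levels of both genes are set side by side below.
Hars1 and Hars2, between their gene spans, GRCr8 chr18:28672713-28672809, plus strand: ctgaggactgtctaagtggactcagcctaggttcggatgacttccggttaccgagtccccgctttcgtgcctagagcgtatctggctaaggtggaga

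Array medians lay between 24.2 and 28.9 and upper quartiles between 151 and 163 in intensity, and the medians were at least 26.8 at day 7, against at most 26.2 at day 0. No 2 arrays were identical. The labelled types were set against marker lists: the summed intensity of 12 neuronal markers at days 0, 3 and 7 was 1689.8 to 1894, 6517 to 6956 and 14607 to 14954 in Ge6, and 656 to 662, 7065 to 7751 and 9677 to 11108 in L2.2. In Ge2 it stayed between 1247 and 2126, while its 10 astrocyte markers summed to 17105 to 18336 at day 7, against 2581 to 2604 at day 0. High astrocyte sums were not particular to Ge2. They reached 25329 to 26334.5 in Ctx8, 18471 to 26258 in L2.3, 6998 to 10072.5 in L2.2 and 3259 to 3528 in Ge6 at day 7. The neuronal sums of Ctx8 and L2.3 were then 5634 to 5977 and 7333 to 7702. Of 8 microglia markers, at most 2 in any group had a mean above a floor of 16.3, set at the 40th percentile of the whole table. In these bulk cultures, fewer cells of a type and less RNA per cell cannot be told apart.

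In FGF2 the cytosolic synthetases were high in L2.2, Ge2 and Ge6 and low in Ctx8 and L2.3. Each clone was compared with the equally weighted mean of the 4 others by contrasts of a limma fit over all genes, with a gene called at a Benjamini-Hochberg adjusted p under 0.05. In L2.2, 15 of 18 cytosolic genes were higher and 1, Kars1, was lower, against 22.3% of all genes higher, with a median difference of 0.66 in log2. In Ge2, 17 of 18 were higher (24.5% of all genes), with a median of 0.45, and in Ge6 16 of 18 were higher (20.3%), with a median of 0.26. All 18 were lower in Ctx8 (24.3% of all genes lower) and all 18 in L2.3 (24.2%), with medians of -0.72 and -0.70. These comparisons share arrays with each other, so the counts of different clones do not stand apart from one another.

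Yars1, the tyrosyl-tRNA synthetase, read 2467 and 2495 in L2.2, 2292, 2232 and 2247 in Ge2 and 1758, 1795 and 1834 in Ge6 at day 0, against 847, 892 and 915 in Ctx8 and 936, 1007 and 968 in L2.3, all in intensity. No array of L2.2, Ge2 or Ge6 overlapped with those of Ctx8 and L2.3, and the order of the clones was L2.2, Ge2, Ge6, L2.3 and Ctx8. The difference from the 4 other clones was 0.86 ± 0.07 (SE, adjusted p = 3e-12) in L2.2 and -0.83 ± 0.06 (SE, adjusted p = 1.47e-13) in L2.3. Cars1, the cysteinyl-tRNA synthetase, read 894 and 984 in L2.2, 952, 923 and 884 in Ge2 and 876, 889 and 876 in Ge6, against 282, 329 and 341 in Ctx8 and 304, 339 and 315 in L2.3. The arrays of Ge2 overlapped with those of L2.2 and of Ge6, which did not overlap with each other, and all 3 clones lay above the 2 low ones. Sars1, the seryl-tRNA synthetase, averaged 2984 ± 37.3 in L2.2 (SD, n = 2), 2374 ± 22.9 in Ge2 and 2066 ± 83.7 in Ge6, against 1106 ± 38.2 in Ctx8 and 1119 ± 39.4 in L2.3 (SD, n = 3 each). Kars1, the lysyl-tRNA synthetase, differed little: it averaged 1706 ± 39.0 in Ge6, 1588 ± 17.5 in Ge2 and 1395 ± 25.6 in L2.2, against 1409 ± 15.6 in L2.3 and 1396 ± 36.1 in Ctx8, so that L2.2 stood with the low clones.

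**Figure D1:**
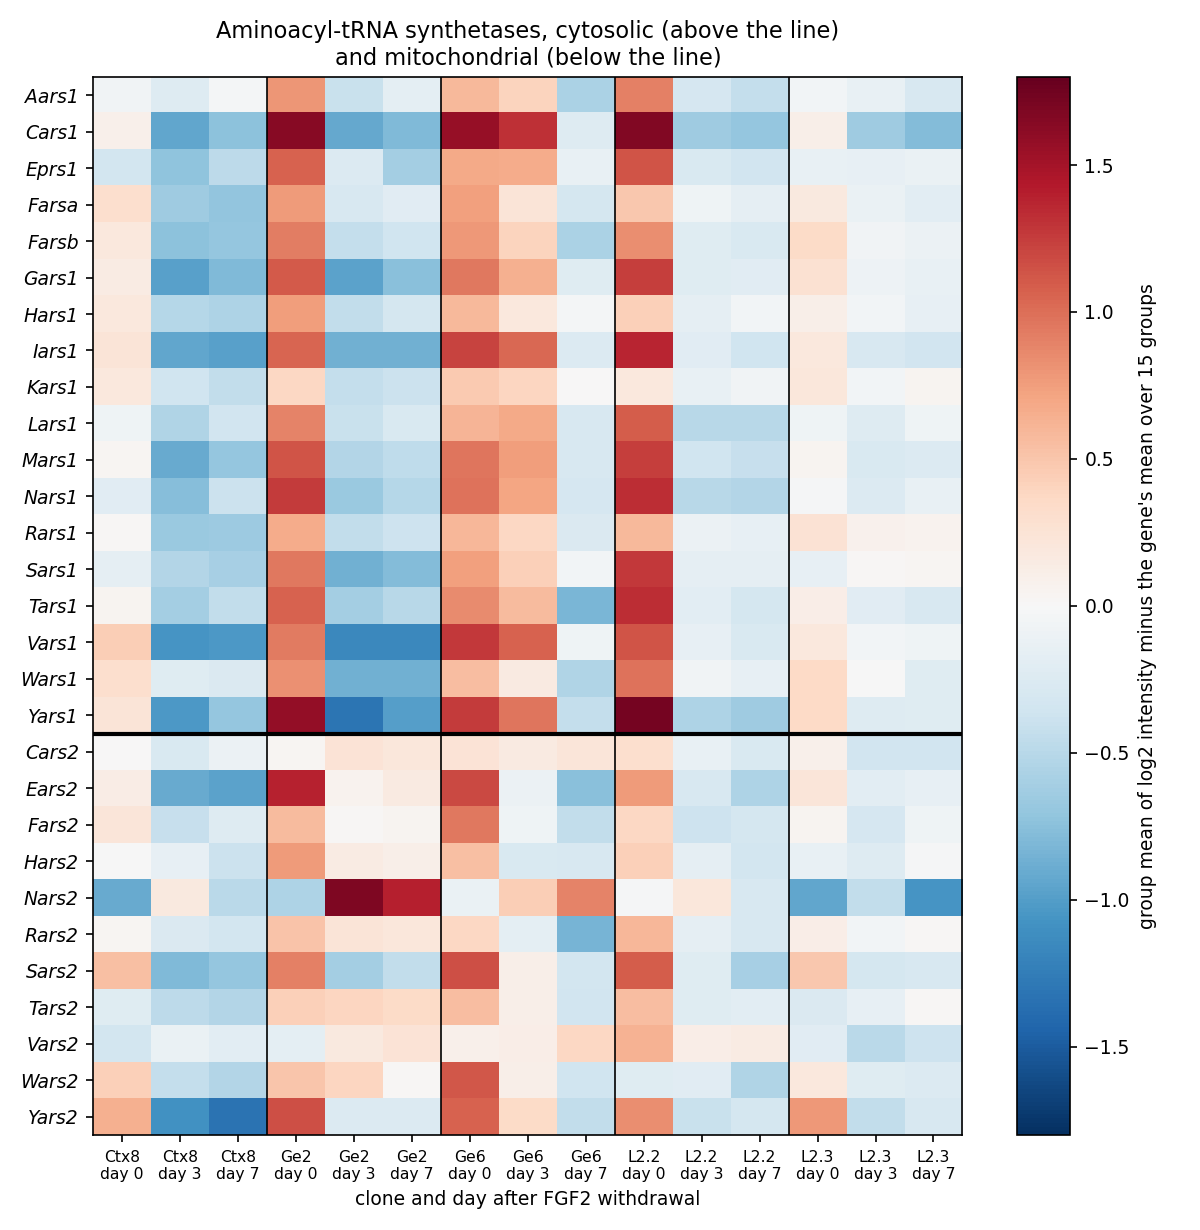
Mean log2 intensity of each of the 29 synthetases (rows, cytosolic above the black line and mitochondrial below it) in the 15 groups of clone and day (columns), each gene centred on its mean over the groups. Most cytosolic rows are high at day 0 in Ge2, Ge6 and L2.2 and stay high at day 3 in Ge6 alone. There 18 of 18 fell between days 3 and 7. On its chosen probe set Nars2 runs the other way in Ge2 and Ge6, which its second probe set did not bear out.

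After FGF2 withdrawal the cytosolic synthetases fell together by day 3 in Ge2 and in L2.2. All 18 were lower at day 3 than at day 0 in Ge2, against 32.4% of all genes, with changes of -2.90 to -0.80 and a median of -1.66 in log2. All 18 were lower in L2.2 too (27.7% of all genes), with changes of -2.31 to -0.32 and a median of -1.42. The median over all genes was -0.04 in Ge2 and -0.06 in L2.2. At day 7 all 18 were again lower than at day 0 in both clones, with medians of -1.63 in Ge2 (33.3% of all genes lower) and -1.44 in L2.2 (30.3%). None of these calls was lost when any single array was left out.

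Yars1 fell most in Ge2. It read 2292, 2232 and 2247 at day 0, 291, 299.9 and 316 at day 3 and 354, 399.9 and 386 at day 7, and the days did not overlap. Its change at day 3 was -2.90 ± 0.08 (SE, adjusted p = 5.51e-27), a 7.48-fold fall, and it rose by 0.33 ± 0.08 between days 3 and 7. In L2.2 it read 2467 and 2495 at day 0, 490.3, 509.8 and 545 at day 3 and 441, 492 and 519 at day 7, where days 3 and 7 overlapped and both lay far below day 0. Cars1 read 952, 923 and 884 at day 0, 135, 166 and 171 at day 3 and 163, 175 and 173 at day 7 in Ge2, a change of -2.56 ± 0.09 (SE, adjusted p = 3.13e-23) by day 3. The same gene changed by -2.31 ± 0.10 (SE, adjusted p = 9.98e-20) in L2.2.

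The other cytosolic enzymes followed in both clones with smaller falls. Vars1, the valyl-tRNA synthetase, fell by 4.30-fold in Ge2 at day 3, a log2 change of -2.10 ± 0.11 (SE), and changed by -1.28 ± 0.12 in L2.2. Gars1, which charges glycine, changed by -2.06 ± 0.07 in Ge2 and -1.47 ± 0.08 in L2.2. The asparaginyl enzyme Nars1 changed by -1.92 ± 0.07 in Ge2 and -1.82 ± 0.08 in L2.2, and the isoleucyl enzyme Iars1 by -1.92 ± 0.08 in Ge2 and -1.57 ± 0.09 in L2.2. Sars1 changed by -1.80 ± 0.06 in Ge2 and -1.44 ± 0.07 in L2.2. At the small end in L2.2 stood Kars1 with -0.32 ± 0.05, Farsa, the alpha subunit of the phenylalanyl enzyme, with -0.56 ± 0.08, and Hars1 with -0.59 ± 0.07, while Farsb, the beta subunit of the same enzyme, changed by -1.06 ± 0.07.

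Between days 3 and 7 little moved in these clones. In Ge2 only Aars1, the alanyl enzyme (0.23 ± 0.07), and Yars1 rose among the 18, against 9.02% of all genes higher, and the call of Aars1 was lost without replicate 2 of day 3 (0.16) or replicate 3 of day 7 (0.18). In L2.2 0 of 18 cytosolic genes were called by limma, against 8.89% of all genes lower, and at an unadjusted p under 0.05 the count was 0.

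In Ge6, the GABAergic clone, the same fall came late. At day 3, 13 of 18 cytosolic synthetases were lower than at day 0, against 28.6% of all genes, but the median change was only -0.26 and the range -0.51 to 0.08. A test against a minimum change of 1.2-fold left 8 calls over all 29 synthetases, where 22 had passed without it. At day 7 all 18 were lower than at day 0 (35% of all genes), with a median of -1.17, and all 18 were lower than at day 3 (26%), with a median of -0.97. Per gene, a median of 18.5% of the day 7 log2 change was present at day 3 in Ge6, with a range of -8.83% to 62.3%, while the medians were 106% in Ge2 and 95.7% in L2.2. The calls of all 18 at day 7 against day 0 were kept without any single array.

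Yars1 read 1758, 1795 and 1834 at day 0, 1451, 1524 and 1434 at day 3 and 636, 580.4 and 481 at day 7 in Ge6. Day 3 stood close below day 0, and day 7 far below both. The change was -0.29 ± 0.08 (SE, adjusted p = 0.002) at day 3 and -1.68 ± 0.08 (SE, adjusted p = 5.15e-20) at day 7. Tars1, the threonyl enzyme, read 986, 1058 and 1133 at day 0, 864, 917 and 836 at day 3 and 358, 323 and 319 at day 7, and its change between days 3 and 7 was -1.39 ± 0.06 (SE, adjusted p = 3.21e-19). Cars1 read 876, 889 and 876 at day 0, 739, 835 and 648 at day 3 and 258, 249 and 246 at day 7, the largest day 7 fall of the cytosolic members in this clone at -1.81 ± 0.09. Its call at day 3 was lost without replicate 2 of day 0 or replicate 3 of day 3, with changes of -0.25 and -0.16.

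Mars1, the methionyl enzyme, changed by -0.21 ± 0.07 at day 3 and -1.26 ± 0.07 at day 7, and Iars1 by -0.19 ± 0.08, not called, and -1.46 ± 0.08. Lars1, the leucyl enzyme that is also known as a leucine sensor, gave 0.08 ± 0.06 at day 3, not called, and -0.90 ± 0.06 at day 7. Eprs1, which charges both glutamate and proline, gave -0.01 ± 0.17 at day 3, not called, and fell by day 7 (-0.81 ± 0.17). This SE uses the spread shared by all groups, which includes replicate 2 of Ge2 at day 7 at 586, against 1552 and 1482 for its sisters. Within Ge6 the SD of Eprs1 was 171 at day 0, 33.8 at day 3 and 27.6 at day 7, in intensity. Farsa was the cytosolic member that moved most by day 3, with -0.51 ± 0.07. The smallest day 7 changes were those of Kars1 (-0.47 ± 0.05) and Hars1 (-0.62 ± 0.07).

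**Figure D2:**
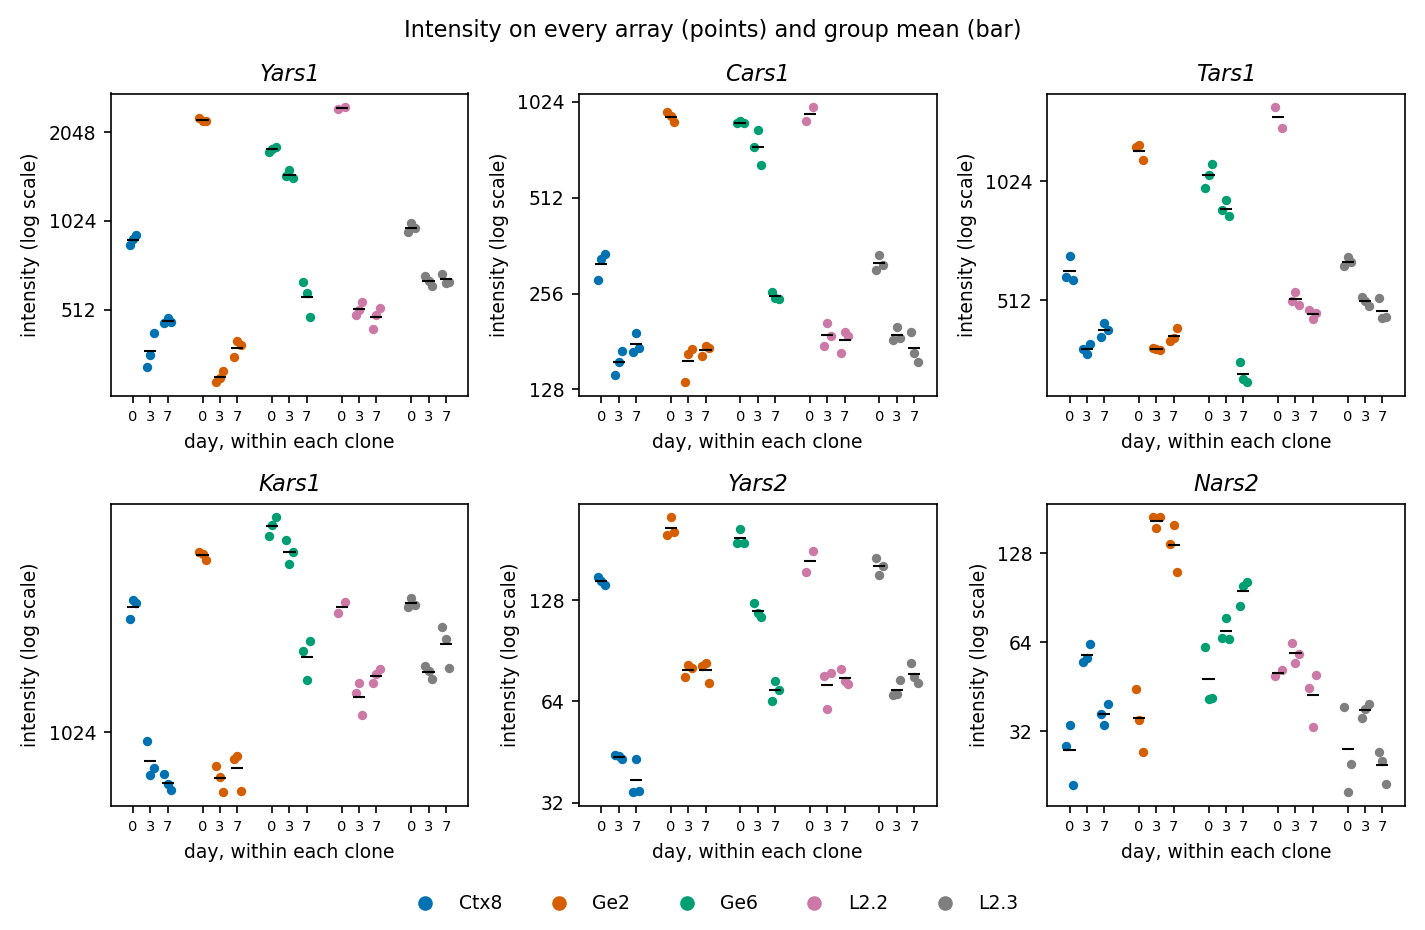
Intensity on a log2-spaced axis on every array (points) with the group mean (bar) for 4 cytosolic and 2 mitochondrial synthetases, by clone (colour) and day (axis). Yars1, Cars1 and Tars1 drop by day 3 in Ge2 and L2.2 and by day 7 in Ge6. From lower day 0 levels they also drop by day 3 in Ctx8 and, less, in L2.3. Kars1, with means between 904 and 1706, drops less than these genes in Ge2, L2.2 and Ge6. Its mean in Ge2 still goes from 1588 at day 0 to 914 at day 3. Nars2 in Ge2, on its chosen probe set only, is highest at day 3, at 165.

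In the multipotential clones the falls started from lower levels. In Ctx8, 17 of 18 cytosolic synthetases were lower at day 3 than at day 0 (29.7% of all genes), with a median of -0.69, and 16 of 18 were lower at day 7 (30.9%), with a median of -0.71. Vars1 changed most, by -1.50 ± 0.11 (SE, adjusted p = 1.64e-14) at day 3. It was followed by Yars1 with -1.26 ± 0.08, Iars1 with -1.16 ± 0.08, Gars1 with -1.13 ± 0.07 and Cars1 with -1.03 ± 0.09. Between days 3 and 7, 5 of 18 rose again in Ctx8, against 11.9% of all genes higher: Nars1 (0.38 ± 0.07), Yars1 (0.34 ± 0.08), Mars1 (0.21 ± 0.07), Lars1 (0.20 ± 0.06) and Aars1 (0.19 ± 0.07). None of the 5 reached a change of 1.2-fold by the test against that minimum. Yars1 in Ctx8 read 847, 892 and 915 at day 0, 327, 359 and 425 at day 3 and 459.7, 478 and 465 at day 7, without overlap between days.

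In L2.3 the changes were small. At day 3, 13 of 18 were lower and 1, Sars1, was higher than at day 0 (26.2% of all genes lower), with a median of -0.27. At day 7, 14 were lower and Sars1 was higher (26.9%), with a median of -0.29. Testing against a 1.2-fold minimum left 6 of 21 calls over all 29 synthetases at day 3 and 8 of 21 at day 7. Cars1 changed by -0.75 ± 0.09 at day 3 and -0.89 ± 0.09 at day 7, and Yars1 by -0.60 ± 0.08 and -0.58 ± 0.08. Yars1 read 936, 1007 and 968 at day 0, 666, 641 and 616 at day 3 and 676, 632 and 637 at day 7, so that days 3 and 7 overlapped below day 0. Sars1 read 1085, 1162 and 1111 at day 0, 1305, 1203 and 1261 at day 3 and 1323, 1223 and 1241 at day 7, a change of 0.17 ± 0.06 (SE, adjusted p = 0.0191) at day 3. The change was 0.17 ± 0.06 at day 7. The day 3 rise was not called when all arrays were shifted to one median (0.08), nor without replicate 1 or 3 of day 0 or replicate 1 of day 3 (0.14 to 0.16). The day 7 rise was not called under that shift (0.07), with the mean of the probe sets (0.20), or without replicate 1 of day 0 or replicate 1 of day 7 (0.14 to 0.15). Between days 3 and 7 the only cytosolic call in L2.3 was Wars1, the tryptophanyl enzyme, with -0.21 ± 0.06, against 5.87% of all genes lower, and that call was lost without replicate 3 of day 3 or replicate 3 of day 7, with -0.19 in both cases.

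**Figure D3:**
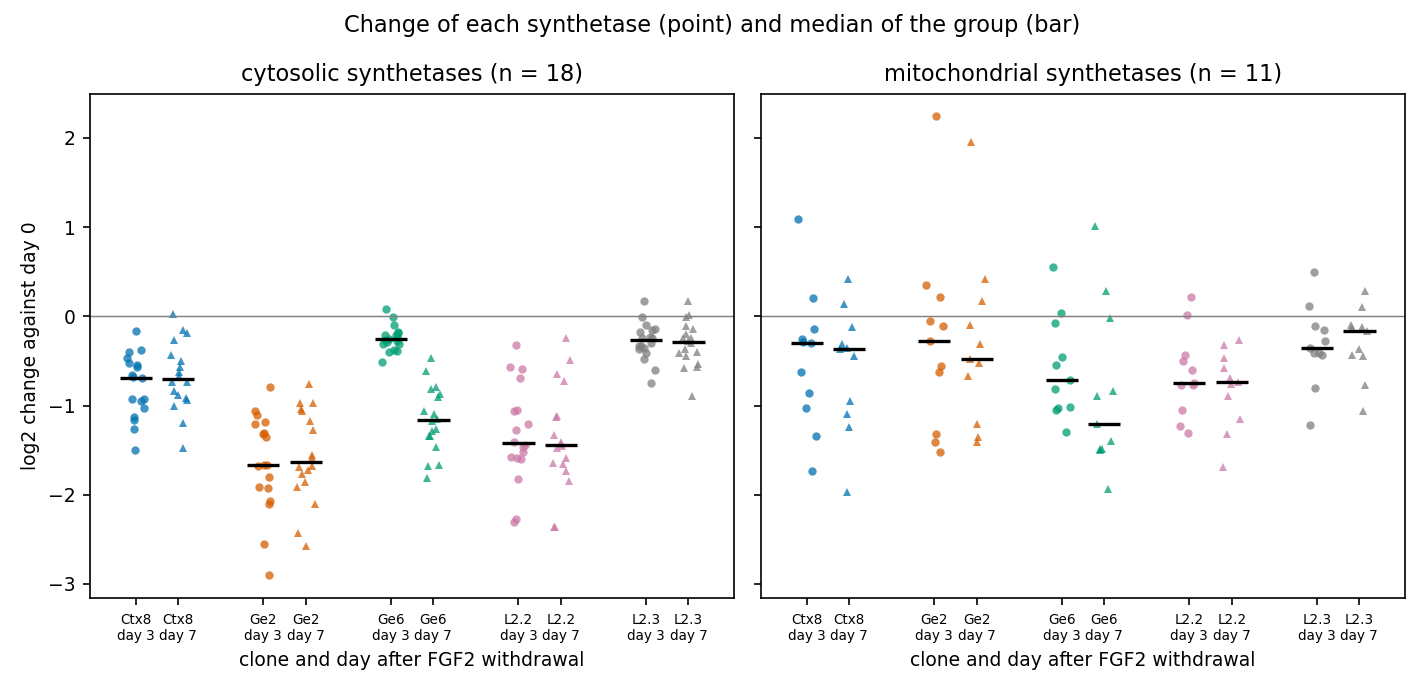
Log2 change of each synthetase (point) at day 3 (circles) and day 7 (triangles) against day 0 in each clone, with the median (bar), for the 18 cytosolic genes (left) and the 11 mitochondrial genes (right). The cytosolic median lies at -1.66 in Ge2 and -1.42 in L2.2 at day 3, and in Ge6 at -0.26 at day 3 and -1.17 at day 7.

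The difference in change between clones was itself tested. An F test asked, gene by gene, whether the change differed between any of the 5 clones. It called 18 of 18 cytosolic genes for the day 3 change (68.2% of all genes) and 18 of 18 for the day 7 change (71.5%), with adjusted p of at most 1.13e-06 and 3.2e-07. The day 0 level differed for 18 of 18 as well (65.6%), with adjusted p of at most 2.1e-06. Each clone's change was then set against the mean change of the 4 others. At day 3 all 18 cytosolic genes fell further in Ge2 (27.7% of all genes), with a median difference of -0.93, and 13 fell further in L2.2 (18.2%), with a median of -0.71. All 18 changes were higher in Ge6 (24.1%), with a median of 0.77, and all 18 in L2.3 (21.8%), with a median of 0.72. In Ctx8, 8 were higher (17%) and 3 lower.

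At day 7 the order had shifted. All 18 changes were still lower in Ge2 (27.5% of all genes) and all 18 higher in L2.3 (27.3%), with medians of -0.64 and 0.96. In Ge6, 7 of 18 were now lower (29.3%) and 0 higher, in L2.2 11 were lower and 1 higher (19% of all genes lower), and in Ctx8 12 were higher and 2 lower (20.7% of all genes higher). The day 3 change of Yars1 was 1.47 ± 0.09 (SE, adjusted p = 2.41e-16) above that of the other clones in Ge6 and differed by -1.80 ± 0.09 (SE, adjusted p = 5.67e-19) in Ge2. Its day 7 change in Ge6 differed from that of the others by -0.07 ± 0.09 (SE, adjusted p = 0.577), which was not called. Counted in either direction, the day 3 change was called for 35.8% in Ctx8, 52.6% in Ge2, 46.6% in Ge6, 36.4% in L2.2 and 38.2% in L2.3 of all genes, and the day 7 change for 40.8% in Ctx8, 52.6% in Ge2, 51.9% in Ge6, 38.8% in L2.2 and 46.3% in L2.3. The day 0 arrays enter both the levels in FGF2 and every change against day 0.

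The levels in the 5 clones came closer together by day 7. The ratio of the highest to the lowest clone mean of a cytosolic synthetase had a median of 2.19 at day 0, 2.39 at day 3 and 1.47 at day 7, and was smaller at day 7 than at day 0 for 14 of 18 genes. Over all genes the median ratio was 1.35 at day 0, 1.53 at day 3 and 1.57 at day 7, and 35.4% were narrower at day 7. For Yars1 the clone means at day 7 ran between 380.0 in Ge2 and 648 in L2.3, against 885 in Ctx8 and 2481 in L2.2 at day 0. Among mitochondrial enzymes 6 of 11 were narrower at day 7, with a median ratio of 1.86 at day 0, 1.76 at day 3 and 1.67 at day 7. No test was made of this narrowing.

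The cytosolic members were also read by structural class and by complex. Class I and class II are the unrelated folds of the catalytic domain, with 9 cytosolic genes each here. The class I median was -1.68 in Ge2 and -1.57 in L2.2 at day 3, and -1.26 in Ge6 at day 7, and the class II median -1.35 in Ge2 and -1.21 in L2.2 at day 3, and -1.15 in Ge6 at day 7. The 6 measured enzymes of the multisynthetase complex, Eprs1, Iars1, Kars1, Lars1, Mars1 and Rars1, had medians of -1.31 in Ge2 and -1.49 in L2.2 at day 3, and -0.88 in Ge6 at day 7, and the 12 outside it of -1.74 in Ge2 and -1.36 in L2.2 at day 3, and -1.23 in Ge6 at day 7. The 13 cytosolic genes listed as known Atf4 targets had medians of -1.80 in Ge2 and -1.52 in L2.2 at day 3, and -1.26 in Ge6 at day 7, against -1.11 in Ge2 and -0.59 in L2.2 at day 3, and -0.87 in Ge6 at day 7 for the 5 others, Farsa, Farsb, Hars1, Kars1 and Rars1. All members of these lists were called lower in those 3 comparisons, so the lists are described here by their medians, without a test.

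The genes with the response element letters in the promoter window had lower median changes against day 0 than the others, except in Ge6 at day 3. Between days 3 and 7 their median change was higher than that of the others in Ctx8 and Ge2, and lower in Ge6, L2.2 and L2.3. At day 3 the median over the 7 genes with a match was -1.92 in Ge2, against -1.32 for the 9 without, -1.60 against -1.06 in L2.2, -0.94 against -0.55 in Ctx8 and -0.33 against -0.24 in L2.3. In Ge6 it was -0.26 against -0.32 at day 3 and -1.46 against -0.90 at day 7. The sets overlapped: Vars1, which had no match, fell by 4.30-fold in Ge2, further than 5 of the 7 with one, and Aars1, which held a match, changed by -1.20 ± 0.07 in log2. These medians are a description of 16 genes without a test, and the windows of Aars1 and Eprs1 lie wholly inside the gene span.

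**Figure D4:**
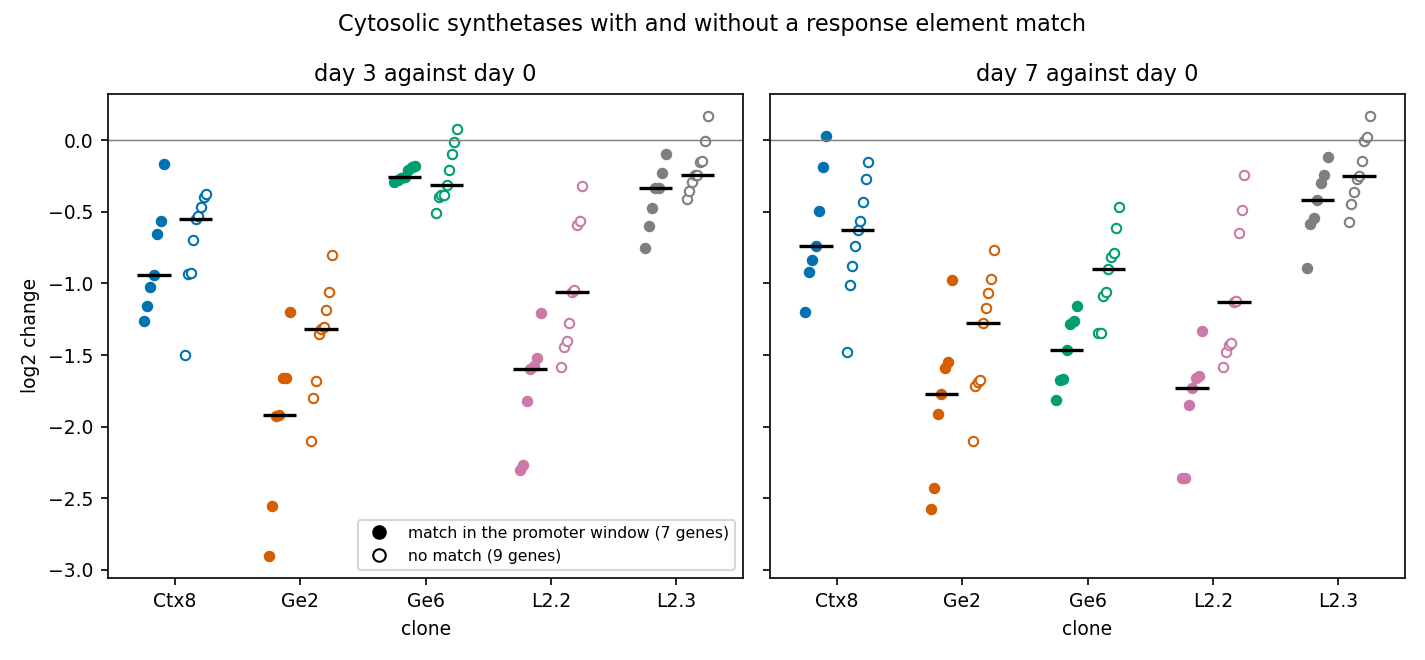
Log2 change against day 0 of the 16 cytosolic synthetases with a promoter window, at day 3 (left) and day 7 (right), for the 7 genes with a response element match (filled) and the 9 without (open), with medians (bars). The filled median lies below the open one at day 3 in Ge2, at -1.92 against -1.32, and the 2 sets overlap in every clone at day 3.

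The mitochondrial enzymes charge the tRNAs that read the mitochondrial genome, and their changes were more mixed. At day 3 against day 0, 9 of 11 were lower in L2.2, 8 in Ctx8 and in Ge6, and 6 in Ge2 and in L2.3, with medians of -0.75 in L2.2, -0.29 in Ctx8, -0.72 in Ge6, -0.28 in Ge2 and -0.35 in L2.3, beside the shares of all genes given above for the same comparisons. At day 7 it was 10 of 11 in L2.2, 8 in Ctx8 and in Ge6, 7 in Ge2 and 5 in L2.3. Between days 3 and 7, 2 of 11 were lower in Ctx8 (10.5% of all genes), 2 in L2.2 (8.89%), 1 in Ge2 (7.68%) and 1 in L2.3 (5.87%). Between 0 and 2 of 11 were higher in each comparison with day 0, Vars2 and, on its chosen probe set, Nars2 in Ge2 among them. Of all genes 19.7% to 27.5% were higher at day 3 and 21.4% to 27% at day 7, so these counts lay under the shares. In Ge6 the mitochondrial median was -0.72 at day 3, where the cytosolic one was -0.26, and at day 7 both had reached -1.21 and -1.17. The F test between clones called 11 of 11 for the change at day 3, with adjusted p of at most 0.0134, and at day 7, with at most 0.0011. For the level at day 0 it called 10 of 11, all but Cars2 (adjusted p = 0.149).

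Yars2, the mitochondrial tyrosyl enzyme, fell in all 5 clones. In Ctx8 it read 149.6, 146 and 141 at day 0, 44.4, 44.1 and 43.1 at day 3 and 34.4, 43.1 and 34.6 at day 7, a change of -1.97 ± 0.09 (SE, adjusted p = 9.84e-21) at day 7. In Ge6 it read 189.7, 208 and 189 at day 0, 126, 117 and 114 at day 3 and 64.1, 73.5 and 69.3 at day 7, with each day below the one before and no overlap. In L2.3, where the cytosolic enzymes moved little, Yars2 changed by -1.22 ± 0.09 (SE, adjusted p = 1.98e-14) at day 3. Sars2, which charges serine, fell in every clone too, with day 7 changes of -1.69 ± 0.15 in L2.2, -1.49 ± 0.13 in Ge6, -1.35 ± 0.13 in Ge2, -1.24 ± 0.13 in Ctx8 and -0.77 ± 0.13 in L2.3. Ears2, the glutamyl enzyme, gave the largest mitochondrial fall in Ge6 at day 7, -1.93 ± 0.14 (SE, adjusted p = 4.64e-15), and read 82.6, 81.9 and 63.4 at day 0, 29.7, 30.0 and 32.7 at day 3 and 17.3, 18.8 and 23.7 at day 7. That day 7 mean, 19.96 ± 3.36 (SD), lay close above the floor of 16.3. The day 7 means of Sars2, 19.4 in Ctx8 to 25.9 in L2.3, were also near it, so the sizes of these falls are less certain. Wars2, Fars2 and Rars2, which charge tryptophan, phenylalanine and arginine, changed in Ge6 by -1.49 ± 0.12, -1.40 ± 0.12 and -1.21 ± 0.08 at day 7.

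Nars2, the mitochondrial asparaginyl enzyme, went the other way on its chosen probe set. In Ge2 it read 44.4, 35.1 and 27.3 at day 0, 169, 156 and 169 at day 3 and 138, 159.8 and 111 at day 7, a change of 2.24 ± 0.19 (SE, adjusted p = 5.74e-13) at day 3. In Ge6 it read 61.8, 41.2 and 41.5 at day 0, 66.4, 77.2 and 65.7 at day 3 and 84.8, 99.5 and 103 at day 7, a change of 1.01 ± 0.19 (SE, adjusted p = 1.38e-05) at day 7, with day 3 above day 0 on every array. Its second probe set did not bear this out: there the day 3 change was -0.02 in Ge2, not called, and the change in Ge6 was -0.73 at day 3 and -0.93 at day 7, both called lower. The geometric mean intensities of the 2 probe sets over all arrays were 51.2 and 39.8, so neither could be set aside as dim, and the direction of the gene is not settled by these arrays. Vars2, the valyl enzyme, was called higher in Ge2 at day 3 (0.35 ± 0.13) and at day 7 (0.42 ± 0.13), and lower in L2.2 at both days (-0.51 ± 0.14 and -0.47 ± 0.14). The call at day 3 in Ge2 was lost without replicate 2 or 3 of day 0 or replicate 1 of day 3, and those in L2.2 without replicate 3 of day 0, which left values of -0.36 and -0.32. Shifting all arrays to one median, or quantile normalization, also ended the call in Ge2 at day 3, with 0.20 in both cases.

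For amino acids with both enzymes measured, the cytosolic and the mitochondrial gene could be read side by side. For tyrosine, Yars1 changed by -2.90 and Yars2 by -1.40 in Ge2 at day 3. For cysteine, Cars1 changed by -2.56 there, while Cars2 gave 0.21 ± 0.12 and was not called. For threonine, Tars1 changed by -1.66 while Tars2 gave -0.05 ± 0.08, not called, and at day 7 in L2.3 Tars1 was lower (-0.41) and Tars2 higher (0.29), the Tars2 call being lost under a shift to one median (0.18). For histidine, the head-to-head pair Hars1 and Hars2 changed by -1.19 and -0.62 in Ge2, by -0.59 and -0.60 in L2.2, and by -0.38 and -0.82 in Ge6, all at day 3 and all called. In Ctx8 Hars1 fell (-0.70) and Hars2 gave -0.14 ± 0.09, not called.

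Of the 29 members, 17 had more than 1 probe set, with 22 further probe sets in all. Over the 10 comparisons with day 0 these gave 220 results, of which 113 made the same call as the chosen probe set, 28 were called on neither, 74 were called on 1 of the 2 only and 5 made the opposite call. The opposite calls were those of Nars2 in Ge6 at both days, of Sars1 in Ctx8 at day 3, with 0.54 on a probe set of geometric mean intensity 32.4, and of Ears2 in Ge2 at days 3 and 7, with 0.61 and 0.35 on a probe set of geometric mean intensity 20. The geometric mean of 6 of the 22 lay under the floor of 16.3.

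Most scaffold and transport partners of the synthetases were lower as well. Of 10 measured cofactors and tRNA export genes, 8 in Ctx8, 9 in Ge2, 7 in Ge6, 9 in L2.2 and 7 in L2.3 were lower at day 3 than at day 0, and 8 in Ctx8, 9 in Ge2, 9 in Ge6, 9 in L2.2 and 6 in L2.3 at day 7, beside 26.2% to 32.4% of all genes at day 3 and 26.9% to 35% at day 7. Aimp1, a scaffold of the multisynthetase complex, changed at day 3 by -1.18 ± 0.07 (SE, adjusted p = 2.89e-17) in Ge2, -0.81 ± 0.08 in L2.2 and -0.21 ± 0.07 in Ge6, and by -0.74 ± 0.07 at day 7 in Ge6. Aimp2 changed by -0.99 ± 0.07 in Ge2 and -1.04 ± 0.07 in Ctx8 at day 3, and by -0.98 ± 0.07 in Ge6 at day 7. Eef1e1, the third of these scaffolds, changed by -0.83 ± 0.07 in Ge2 at day 3 and -0.35 ± 0.07 in Ge6 at day 7. Xpot, the exporter of tRNA from the nucleus, changed by -1.71 ± 0.07 in L2.2, -1.08 ± 0.07 in Ge2 and -0.40 ± 0.07 in Ge6 at day 3, and by -1.31 ± 0.07 in Ge6 at day 7.

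Of 36 measured genes of the amino acid response, synthetases not counted, 32 were higher at day 0 in L2.2 than in the 4 other clones (22.3% of all genes), 31 in Ge2 (24.5%) and 27 in Ge6 (20.3%), and 32 were lower in Ctx8 (24.3%) and 34 in L2.3 (24.2%). Atf4 itself averaged 4457 ± 9.99 in L2.2, 4101 ± 235 in Ge2 and 3422 ± 184 in Ge6, against 1509 ± 38.5 in Ctx8 and 1479.7 ± 36.0 in L2.3 (SD, n = 2 in L2.2 and 3 elsewhere). It changed by day 3 by -1.84 ± 0.05 (SE, adjusted p = 9.46e-26) in Ge2 and -1.51 ± 0.06 (SE, adjusted p = 5.32e-21) in L2.2. In Ge6 it averaged 2556 ± 30.2 at day 3 and 1320.2 ± 89.7 at day 7, with a change of -0.42 ± 0.05 and then -1.37 ± 0.05 against day 0. In L2.3 its change at day 3 was 0.03 ± 0.05 (SE, adjusted p = 0.672). Asns, asparagine synthetase, changed by -2.77 ± 0.10 in L2.2 and -2.51 ± 0.09 in Ge2 at day 3, gave 0.09 ± 0.09 in Ge6 at day 3, not called, and changed there by -1.88 ± 0.09 at day 7.

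Trib3, a pseudokinase that Atf4 induces, was already lower at day 3 in Ge6. It changed by -2.67 ± 0.12 there at day 3 and -3.28 ± 0.12 at day 7. Its mean there was 21.3 ± 2.75 at day 7, close above the floor of 16.3, and 208 ± 27.1 at day 0 (SD, n = 3). Chac1, a glutathione-degrading enzyme, averaged 16.6 ± 3.10 in Ge2 at day 3, on the floor, against 858 ± 21.9 at day 0 (SD, n = 3), so the fall was called but its size is not given. It changed by -4.53 ± 0.21 in L2.2 at day 3, and in Ge6 by -0.72 ± 0.19 at day 3 and -3.29 ± 0.19 at day 7. At day 3 Ddit3, a stress-induced transcription factor, gave -0.10 ± 0.15 in Ge2, not called, and fell in L2.2 (-3.48 ± 0.17) and Ge6 (-1.22 ± 0.15). It rose then in Ctx8 (0.74 ± 0.15) and L2.3 (0.81 ± 0.15). Its day 0 means there, 24.4 ± 4.24 in Ctx8 and 21.7 ± 4.07 in L2.3 (SD, n = 3), lay close above the floor. The sizes of these rises are therefore less certain. Of the 36 genes of this response, 17 in Ctx8, 32 in Ge2, 25 in Ge6, 32 in L2.2 and 8 in L2.3 were lower at day 3, and 13 in Ctx8, 30 in Ge2, 32 in Ge6, 34 in L2.2 and 11 in L2.3 at day 7. The shares of all genes that were lower ran between 26.2% and 32.4% at day 3 and between 26.9% and 35% at day 7, so the L2.3 count of day 3 lay under its share. In L2.3 7 were higher at day 3 and 12 at day 7, and in Ctx8 8 and 12. The shares of all genes higher were 23.9% in Ctx8, 27.5% in Ge2, 20.4% in Ge6, 19.7% in L2.2 and 20% in L2.3 at day 3 and 24.9% in Ctx8, 27% in Ge2, 24% in Ge6, 21.4% in L2.2 and 21.9% in L2.3 at day 7, so both day 3 counts lay under the share of all genes.

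Lists of the wider translation machinery and of the cell cycle also held more lower genes at day 3 than the 26.2% to 32.4% of all genes that were lower in the 5 clones. Of 40 cytosolic translation factors, 34 in Ctx8, 29 in Ge2, 20 in Ge6, 31 in L2.2 and 26 in L2.3 were lower at day 3, with a median of -0.51 in Ge2 and -0.35 in L2.2. Of 55 mitochondrial translation factors, 51 in Ctx8, 50 in Ge2, 47 in Ge6, 46 in L2.2 and 43 in L2.3 were lower at day 3, and in Ge6 their median was -0.56 at day 3 and -1.01 at day 7. Of 49 genes of tRNA maturation and modification, 39 in Ctx8, 40 in Ge2, 34 in Ge6, 37 in L2.2 and 28 in L2.3 were lower at day 3, with a median of -0.87 in Ge2. The 27 cell cycle genes were lower at day 3 in counts of 27 in Ctx8, 27 in Ge2, 11 in Ge6, 23 in L2.2 and 26 in L2.3, and all 27 were lower in Ge6 by day 7. In L2.3 the cell cycle median was -1.01 at day 3, where the cytosolic synthetase median was -0.27, and in L2.2 -0.70, where the synthetase median was -1.42. It was -2.15 in Ctx8 and -4.73 in Ge2, where the synthetase medians were -0.69 and -1.66. In Ge6 the mean centred log2 of the cell cycle genes was 1.16, 0.89 and -0.32 at days 0, 3 and 7. That of the cytosolic synthetases was 0.86, 0.61 and -0.30. Marker lists were read beside the shares of all genes given above for day 7 against day 0. The markers called higher then numbered 10 in Ctx8, 3 in Ge2, 12 in Ge6, 12 in L2.2 and 11 in L2.3 of 12 neuronal markers, 10 in Ctx8, 8 in Ge2, 7 in Ge6, 8 in L2.2 and 9 in L2.3 of 10 astrocyte markers, and 7 in Ctx8, 2 in Ge2, 1 in Ge6, 6 in L2.2 and 4 in L2.3 of 11 measured oligodendrocyte lineage markers. Of 9 precursor markers, 2 in Ctx8, 2 in Ge2, 7 in Ge6, 4 in L2.2 and 2 in L2.3 were lower. The neuronal and oligodendrocyte counts of Ge2, the oligodendrocyte count of Ge6, and the precursor counts of Ctx8, Ge2 and L2.3 lay under the shares of all genes. Of 8 microglia markers 0 were higher in any clone, and of 10 endothelial and mesenchymal markers at most 3 were. The part of proliferation and of glial and neuronal marker levels in the synthetase changes was not tested.

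**Figure D5:**
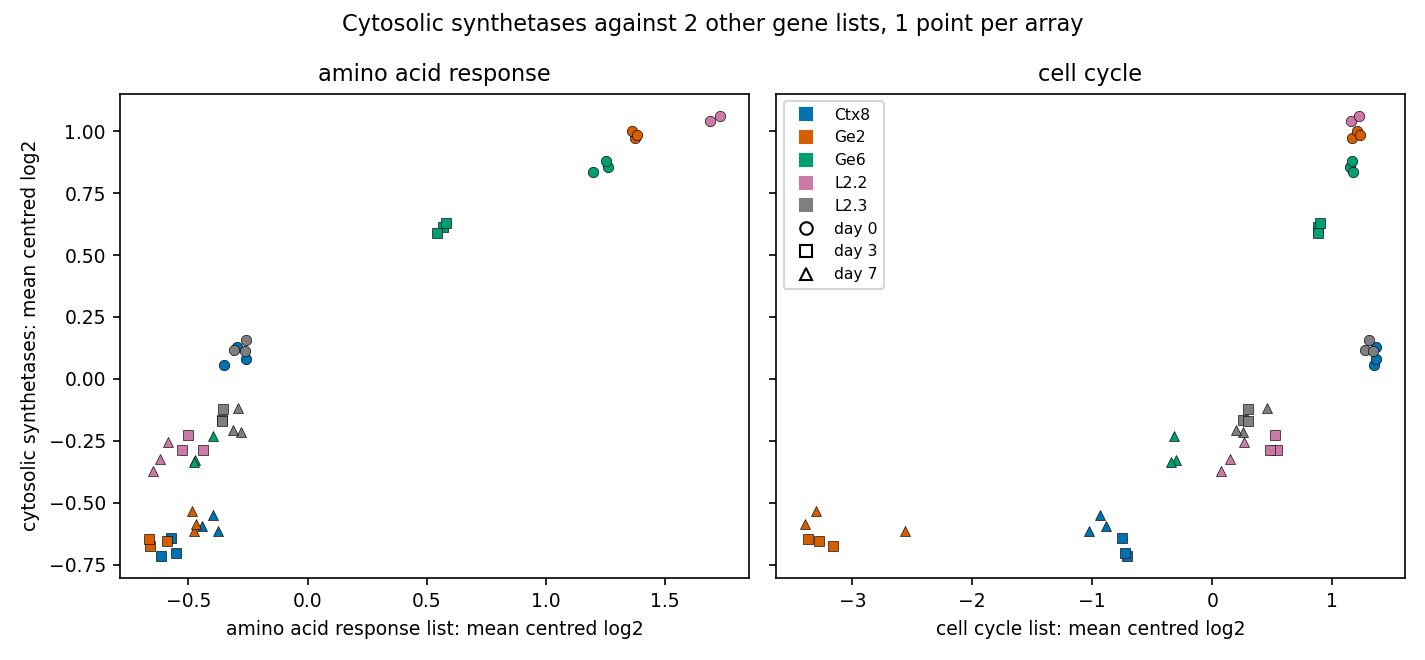
Mean centred log2 of the 18 cytosolic synthetases (vertical axis) against that of 36 amino acid response genes (left) and 27 cell cycle genes (right), 1 point per array, coloured by clone and shaped by day. Over the 15 group means the correlation was 0.94 on the left and 0.72 on the right; on the right, the day 0 arrays of Ctx8 and L2.3 lie below those of Ge2, Ge6 and L2.2 at like cell cycle levels.

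The profile over the 15 group means was compared with that of the mean of the cytosolic synthetases as Pearson's r, a description over groups that share clones and arrays. Each cytosolic gene correlated with the mean of the other 17 at 0.88, for Wars1, to 0.99, for Gars1, Mars1 and Yars1. The mitochondrial genes ranged between -0.33 for Nars2 and 0.93 for Sars2, with 0.87 for Yars2 and 0.18 for Vars2. Among lists, r was 0.98 for the cofactors and tRNA export genes, 0.94 for the amino acid response and for tRNA maturation, 0.93 for cytosolic and 0.92 for mitochondrial translation factors, 0.72 for the cell cycle, -0.41 for neuronal and -0.82 for astrocyte markers, and 0.48 for the mean of all genes. The 10 genes outside the family with the highest r were Katna1 (0.978), a microtubule-severing enzyme, Eif2b3 (0.976), a subunit of the exchange factor for eIF2, Shmt2 (0.974), the mitochondrial serine hydroxymethyltransferase, RGD1563564 (0.972), Rprd1a (0.97), Poc1a (0.97), a centriole protein, Nudc (0.968), Atf4 (0.967), Tdp1 (0.967), a DNA repair enzyme, and Sympk (0.966), a scaffold of mRNA 3' end processing.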

How the data were processed

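RNA from 44 cultures was hybridised to Affymetrix arrays, with samples grouped by the clone and day of their titles. The deposited values were linear intensities per probe set. Per the submitters' processing notes, the authors used GCOS (scanner software) and RMA, which subtracts background, equalizes arrays and joins the probes of a set. The versions of both are not given in the sources used here. RMA scales the arrays to each other, so a change in total RNA per cell would not show. The design had assumed deposited log2 values, but the deposited intensities ran between 6.39 and 12734, so log2 was taken without a pseudocount and nothing was normalized further. The number of arrays per group, 3 or 2, limits the precision. No batch was tested, since scan dates were not used here.

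The annotation tied 17547 of 24183 probe sets to a single gene; the 213 with several genes were not used. Symbols were updated through gene IDs, and each of 12749 genes was read from its brightest probe set by mean log2. One limma fit (version 3.58.1, R 4.3.3) with a mean for each of 15 groups left 29 residual degrees of freedom, and 5 prior ones, and the residual SD had a median of 0.122 on the log2 scale. Within a comparison, two-sided p-values of all genes were adjusted together by Benjamini-Hochberg, and calls were made below 0.05. The fit was tested on simulated data with known changes. Named genes were the members, the partners Aimp1, Aimp2, Eef1e1 and Xpot, the response genes Atf4, Asns, Chac1, Ddit3 and Trib3, and the 10 genes with the most similar profile. The members and gene lists were chosen with earlier results of these data known. Lists covered the synthetase classes and complex, Atf4 targets, cofactors, translation, tRNA maturation, the amino acid response, the cell cycle, and markers of neurons, astrocytes, oligodendrocytes, precursors, microglia, and endothelial and mesenchymal cells. Promoters came from the RefSeq table of build GRCr8, in which Gars1 and Rars1 were not found. The promoter windows of Aars1 are not reported here. Alternatives were quantile normalization, a shift to one median, averaging over probe sets, a filter on dim genes, a pseudocount of 16, a variance trend with robust estimation, array weights, a 1.2-fold minimum, a fit to each clone alone, a replicate block and leaving out each array.

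Replicate numbers did not pair the samples: over 43 pairs with the same number in 2 groups of a clone, the correlation of deviations from the group mean ran between -0.095 and 0.17, and 3 exceeded 0.1.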

Additional observations from a re-analysis of the deposited data

Results flagged for a closer look

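The change after FGF2 withdrawal differed between clones for the synthetases. The limma F test between the 5 clones called 18 of 18 cytosolic and 11 of 11 mitochondrial genes for the change at day 3, where 68.2% of all genes were called, and the same numbers, 18 and 11, at day 7, where 71.5% were. Set against the mean change of the 4 other clones, the day 3 change of the 29 synthetases was called for 25 in Ge2 (52.6% of all genes), 25 in L2.3 (38.2%), 22 in Ge6 (46.6%), 18 in L2.2 (36.4%) and 14 in Ctx8 (35.8%). For the day 7 change the calls numbered 27 in L2.3 (46.3% of all genes), 24 in Ge2 (52.6%), 21 in L2.2 (38.8%), 16 in Ctx8 (40.8%) and 14 in Ge6 (51.9%), where the count lay under the share of all genes. These are tests of the difference in change itself, and they share the day 0 arrays of each clone.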

How the results depend on the processing

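Precision was limited by 3 arrays a group, and for dim mitochondrial probe sets by signal close to background. Each refit gave a count of called synthetases for every comparison that it covered, so the counts far outnumber the refits. Of these counts, 280 under other settings and 509 with 1 array left out stayed within 1.5 times of the reported ones. A further 14 and 11 moved beyond that. When changes had to exceed a 1.2-fold minimum, Ge6 at day 3 against day 0 had 8 calls, L2.3 had 6 at day 3 and 8 at day 7, and all clones but Ge6 had 0 between days 3 and 7. Between days 3 and 7 the L2.2 count of 2 became 1 under quantile normalization, the shift to one median, the variance trend, a pseudocount of 16 and the clone-only fit. The L2.3 count of 2 became 1 with the mean of probe sets and the clone-only fit. Leaving out single arrays gave 4 to 8 calls in Ctx8 for these days (4 without replicate 1 of day 3 or 3 of day 7), 1 to 3 in Ge2 (1 without replicate 2 of day 3), 0 to 2 in L2.2 (below 2 without any array of day 3, or replicate 1 or 2 of day 7) and 0 to 2 in L2.3 (below 2 without replicate 2 or 3 of day 3 or 3 of day 7). Other cytosolic calls lost without single arrays were Aars1 at day 3 in Ctx8 and Ge6, Nars1 at day 7 in Ctx8, Lars1 at day 3 in L2.3, and Kars1, Sars1 and Vars1 at day 7 in L2.3. Averaging a gene's probe sets turned the sign of Sars1 in Ctx8 at day 3 (0.08), of Nars2 in Ge6 at day 3 (-0.09), of Lars1 in the Ge6 level at day 0 (-0.01), of Ears2 in the Ge2 day 3 change against other clones (0.19) and of Nars2 in the Ge6 day 7 change (-0.18), where the probe sets disagree. The shift to one median moved the median change against day 0 of all genes by -0.037, in Ge6 at day 3, to -0.164, in Ctx8 at day 7. Over the 10 comparisons with day 0, 3966 to 6447 genes were then lower and 1890 to 2917 higher, with 3346 to 4457 lower and 2515 to 3510 higher before. With replicate number as a block shared by all clones and days, the fit gave 27 calls in Ctx8 at day 3, with 26 before. In that fit 868 of 870 single gene results kept their call. The cause of these differences was not tested.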

Other observations

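The mitochondrial tryptophanyl enzyme, Wars2, differed in level between the clones in FGF2. It read 110.1, 99.5 and 90.0 in Ge6 at day 0, against 34.8 and 44.6 in L2.2, 56.8, 63.2 and 74.4 in Ge2, 63.3, 58.5 and 62.7 in Ctx8 and 45.5, 54.9 and 57.0 in L2.3. Its level differed from that of the 4 other clones by 0.90 ± 0.10 (SE, adjusted p = 1.13e-09) in Ge6 and by -0.77 ± 0.11 (SE, adjusted p = 4.21e-07) in L2.2, where most cytosolic members were high. At day 3 it was lower than at day 0 in Ge6 (-1.02 ± 0.12) and Ctx8 (-0.86 ± 0.12), and gave 0.01 ± 0.13 in L2.2 and -0.11 ± 0.12 in Ge2, neither called. Between days 3 and 7, 7 of 11 mitochondrial genes fell further in Ge6, beside the 26% of all genes that were lower there. Only 1, Nars2, was higher, on its chosen probe set, and the direction of that gene is not settled. The Wars2 gene was singled out after its values were seen.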
